A study of Mus musculus with 9 samples.

Results

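The genes described here are 45 genes of the actin cytoskeleton, among them well-known targets of serum response factor (SRF), out of 18504 genes with a value. They were chosen by name, from a list of actins, actin-binding proteins, myosin subunits and SRF with its cofactors, and all 45 were found. The study asked what Yap1 does in mouse embryonic stem (ES) cells, and it sequenced polyadenylated RNA in 9 libraries. All come from J1 cells, an ES line (129S4/SvJae strain) used at passages 5 to 7. The libraries fall into 8 groups. The undifferentiated cells comprise an overexpression library (Yap1_OE) and its control BirA, named like a bacterial biotin ligase, then 2 libraries from cells listed as Yap1 knockouts (Yap1_KO1, Yap1_KO2) and the ESC control they were set against, and a knockdown (Yap1_KD1) with its control, labelled Control. The differentiated cells comprise a Yap1 knockdown (dESC_Yap1_KD1) and its control (dESC_control). The knockdown agent, the knockout design, the number of clones and the way and length of differentiation were not given in the labels. Every group but the knockouts has 1 library, so most differences below lack a check between replicates and have no p-value.

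SRF is a transcription factor that binds the CArG box, a short AT-rich element flanked by cytosine and guanine pairs. Its cofactors of the MRTF family (Mkl1 and Mkl2) bind monomeric actin, and they enter the nucleus when actin is drawn into filaments, where they switch on genes for actin, its binding proteins and myosin light chains. Yap1, the coactivator held in check by the Hippo kinases, acts through TEAD proteins, which bind the element CATTCC, and it too responds to tension in the actin cytoskeleton. Several target genes of SRF are best known from smooth muscle, but they are also used by spread, contractile cells of other kinds.

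The promoters of 4 of the members that hold a CArG box are printed as examples, chosen after their values were seen: Srf itself, Acta1 for its pair of elements, and Myl9 and Cnn2. RefSeq windows on GRCm38.p6, from 250 bases before to 50 bases after an annotated start, were at hand for 40 of the 45 members. Tagln, Actg2, Actb, Tgfb1i1 and Diap1 had no window. Each sequence runs 5′ to 3′ on the gene's own strand, and capitals mark the CArG box and, in Acta1, also CATTCC, the TEAD element.
Acta1 (chr8:123894726-123895025, minus strand): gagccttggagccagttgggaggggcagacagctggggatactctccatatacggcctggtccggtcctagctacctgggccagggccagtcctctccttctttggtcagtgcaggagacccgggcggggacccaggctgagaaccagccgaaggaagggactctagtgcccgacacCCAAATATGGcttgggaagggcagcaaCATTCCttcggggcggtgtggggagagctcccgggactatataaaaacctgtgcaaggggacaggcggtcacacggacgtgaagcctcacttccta
Srf (chr17:46556113-46556412, minus strand): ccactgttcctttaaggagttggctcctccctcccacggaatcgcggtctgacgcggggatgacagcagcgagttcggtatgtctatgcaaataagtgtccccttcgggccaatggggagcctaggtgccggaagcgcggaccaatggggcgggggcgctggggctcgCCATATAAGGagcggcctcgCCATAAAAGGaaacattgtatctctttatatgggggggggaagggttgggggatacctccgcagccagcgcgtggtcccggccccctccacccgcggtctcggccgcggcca
Myl9 (chr2:156775214-156775513, plus strand): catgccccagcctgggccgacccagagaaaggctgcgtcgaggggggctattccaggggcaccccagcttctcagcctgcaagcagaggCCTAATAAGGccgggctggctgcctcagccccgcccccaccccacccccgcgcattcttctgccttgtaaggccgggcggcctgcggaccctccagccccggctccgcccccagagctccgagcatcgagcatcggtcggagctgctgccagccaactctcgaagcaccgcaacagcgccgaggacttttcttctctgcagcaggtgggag
Cnn2 (chr10:79988350-79988649, plus strand): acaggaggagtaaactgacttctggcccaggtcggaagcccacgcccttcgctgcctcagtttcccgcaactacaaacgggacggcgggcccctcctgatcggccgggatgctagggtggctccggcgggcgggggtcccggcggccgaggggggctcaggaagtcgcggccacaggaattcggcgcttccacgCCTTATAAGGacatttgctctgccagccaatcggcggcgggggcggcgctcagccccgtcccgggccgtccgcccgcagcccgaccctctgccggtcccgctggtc
In Acta1, which encodes skeletal muscle α-actin, the box CCAAATATGG began 73 bases before the start and CATTCC 46 bases before it. The Srf promoter held 2 boxes, CCATATAAGG at 82 and CCATAAAAGG at 62 bases before the start. Myl9 had CCTAATAAGG 161 bases upstream, and Cnn2 had CCTTATAAGG 56 bases upstream.

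A CArG box was searched by its standard definition on both strands, and 10 of the 40 members with a window held one (25%), against 1.6% of 10113 genes expressed in these libraries and 1.81% of all 27025 genes with a window. Beside the 4 printed promoters these were Actg1 (CCATATATGG, 90 bases before the start), Myl6 (CCTTATATGG, 50), Fhl1 (CCTAAAATGG, 102), Lima1 (CCTTATAAGG, 47), Filip1l (CCTTATAAGG, 62) and Fhl2, with 1 box in each of its promoters (CCAAAAAAGG at 96 and CCTTATATGG at 31). The list was drawn up from known SRF targets, so this share describes the list and is not independent evidence about it. CATTCC, on either strand, was found in 13 members (32.5%) against 14.5% of expressed genes: Tagln2, Acta1, Acta2, Myl12a, Tpm1, Flna, Flnc, Mkl2, Myh10, Mylk, Cald1, Palld and Ahnak. Acta1 alone held both elements, which 0.237% of expressed genes did, and the 2 elements did not overlap there. TATAAA was present in 8 members (20%) against 8.69%. A match describes letters in a short window, and no binding was measured.

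Estimated depths ran from 9.19 to 22.3 M (mega) fragments, so that 1 FPKM (fragments per kilobase of transcript and M mapped fragments) of a 2 kb transcript stood for 18.4 fragments in Yap1_KO1 and 44.6 in Control. Yap1 itself was at 139 FPKM in Yap1_OE against 46.7 in BirA, at 4.55 in Yap1_KD1 against 37.4, and at 12.5 in dESC_Yap1_KD1 against 78.0. In the libraries labelled Yap1_KO1 and Yap1_KO2 it was at 57.3 and 27.6 FPKM against 65.4 in ESC, or 87.6% and 42.2% of it. Yap1 RNA was thus lower in Yap1_KO2 and little changed in Yap1_KO1, and the RNA alone does not show the labelled loss. Every direction drawn from that pair is one of libraries labelled as knockouts. A gene-level value cannot check a deletion that leaves most of the transcript. All 8 ES cell markers examined (Pou5f1, Nanog and 6 others) were at 1 FPKM or more in every library, summing to 4071 to 6228 FPKM in the 7 undifferentiated libraries and to 1831 and 2551 in the differentiated control and knockdown. Small RNA entries took 16.0% to 23.8% of the summed FPKM.

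Levels of the members ran from values near 0 to 3970 FPKM, that of Actb in dESC_control. Of the 45, 35 were at 1 FPKM or more in every library and 6 (Tagln2, Actb, Cnn3, Cfl1, Ezr and Tmsb10) exceeded 100 FPKM in all 9. Actg2, Mylk and Filip1l, which encode smooth muscle γ-actin, myosin light chain kinase and a filamin-interacting protein, stayed under 1 FPKM throughout. Together the members made up 0.533% to 0.982% of all FPKM in the undifferentiated libraries, 2.06% in dESC_control and 1.04% in dESC_Yap1_KD1. These are values per cell population, in which fewer cells of a type and less RNA per cell cannot be told apart.

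**Figure D1:**
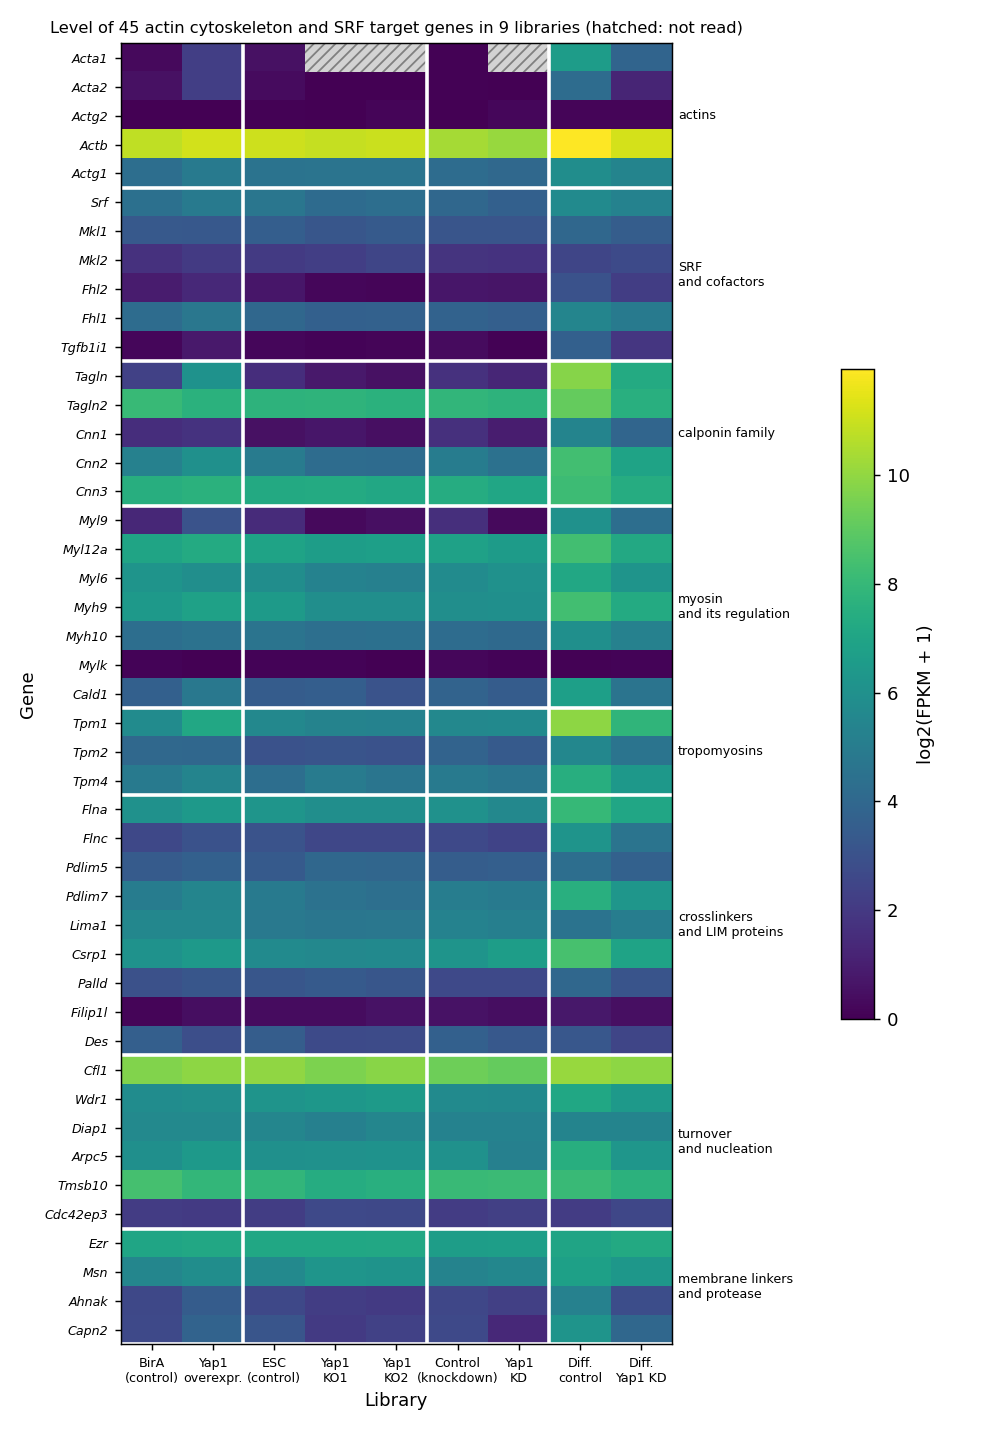
Level of each of the 45 members (vertical axis, grouped by role) in the 9 libraries (horizontal axis), as log2(FPKM + 1) on a colour scale; white lines divide the arms and hatched cells are zeros of Acta1 that were not read. Among the genes that reach 1 FPKM in some library, the differentiated control is brightest for 35.

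Before the genes are described by role, the counts for each comparison are given, as members at least 2-fold from their own control on the log2(FPKM + 1) scale, beside the share of all tested genes past the same line. In the overexpression library 7 of the 45 were higher (background 1.42% of 11561 genes): Tagln, Acta1, Acta2, Myl9, Tpm1, Cald1 and Capn2. None was lower (2.21%). Acta1 and Acta2 reached 1 FPKM in Yap1_OE but not in BirA, so the rule could not have called them lower. Myl9 and Capn2 were lower in the library labelled Yap1_KO1 (1.51%) and Tagln in that labelled Yap1_KO2 (1.51%), and none was lower in both (0.842%). None was higher in either (0.49% and 0.519%). The knockdown in ES cells had 2 members lower, Myl9 and Capn2 (0.355% of 11819 genes), and 0 higher (0.305%). In the differentiated knockdown 20 of the 45 were lower (4.56% of 11804 genes) and 0 higher (1.6%). Between Control and dESC_control, 31 of the 45 were higher in the differentiated cells (12.9% of 12385 genes) and 0 lower (9.98%).

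The median log2 ratio of the members, with no filter, was 0.33 under overexpression, -0.19 and -0.13 in the libraries labelled Yap1_KO1 and Yap1_KO2, -0.16 in the knockdown of ES cells and -0.89 in the differentiated knockdown. Over all genes tested the corresponding medians were 0.02, 0.00, 0.02, 0.01 and -0.01. Between undifferentiated controls the median of the members was 0.00 for BirA over ESC, -0.03 for Control over ESC and 0.11 for BirA over Control. The knockdown and differentiation comparisons share the libraries Control and dESC_control, so their values are given side by side and not as separate support for each other.

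**Figure D2:**
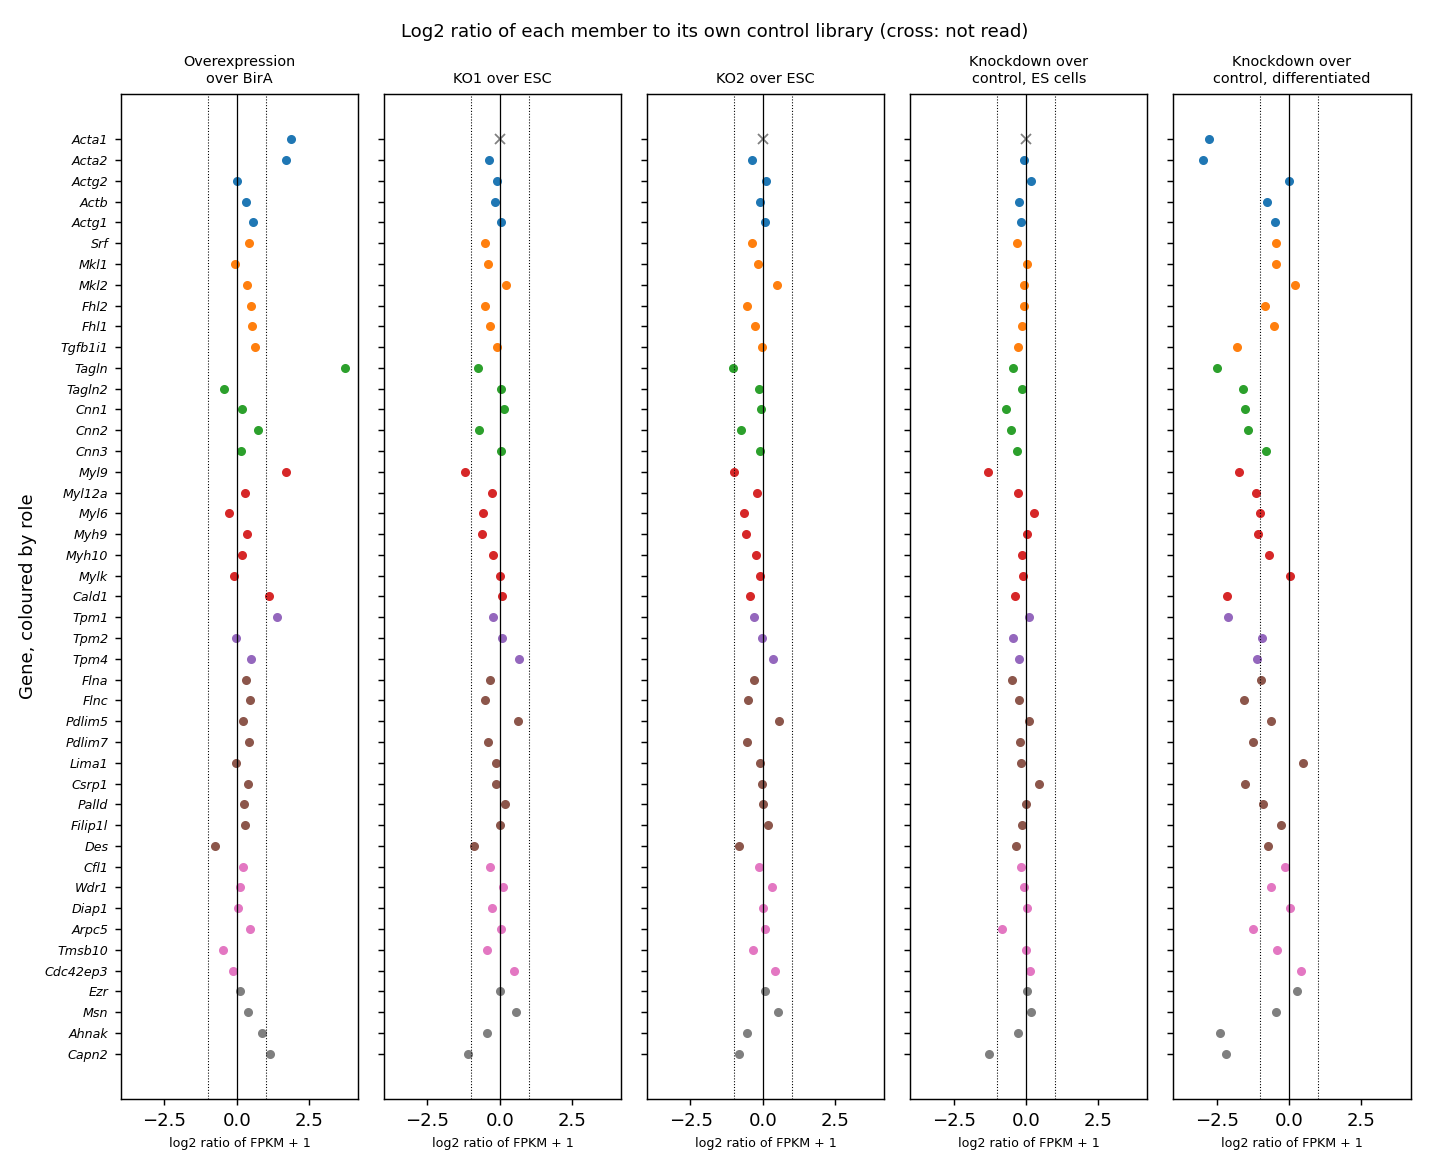
Log2 ratio of FPKM + 1 (horizontal axes) of each member (vertical axis, coloured by role) in 5 comparisons of a Yap1-perturbed library with its own control; dotted lines mark 2-fold and a grey cross a ratio that was not read. Of the 45 genes, 7 lie right of the 2-fold line under overexpression and 20 left of it in the differentiated knockdown.

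The actins divided into a large cytoplasmic pool and a small muscle pool. Actb, cytoplasmic β-actin, made up 95.8% to 98.9% of the summed actin FPKM in every library. It was at 1794 FPKM in BirA and 2233 in Yap1_OE, 2141 in ESC, 1923 in Yap1_KO1 and 2015 in Yap1_KO2, 1288 in Control and 1099 in Yap1_KD1, and 3970 in dESC_control and 2333 in dESC_Yap1_KD1. The differentiated control was the highest library, and the differentiated knockdown, at 58.8% of it, lay little above Yap1_OE. Actg1, cytoplasmic γ-actin, ran in the same arm order at 19.2 and 29.3, at 22.4, 22.9 and 23.5, at 17.6 and 15.4, and at 56.6 and 40.6 FPKM. Its level is uncertain, because genes with near-identical copies elsewhere in the genome can lose reads in counting, and the same holds in part for Actb, Cfl1, Myl12a and Tmsb10.

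Muscle actins were low in undifferentiated cells and well above that in the differentiated control. Acta1 was at 0.252 FPKM in BirA and 3.62 in Yap1_OE, at 0.448 in ESC, at 0.0658 in Control, and at 97.7 in dESC_control and 13.4 in dESC_Yap1_KD1. It is listed at 0 in Yap1_KO1, Yap1_KO2 and Yap1_KD1, and these zeros were not read in ratios of a library to its control. Acta2, smooth muscle α-actin, was at 0.434 in BirA and 3.69 in Yap1_OE, at 0.295 in ESC and 0.0354 in Control, listed at 0 in Yap1_KD1 and in the pair labelled as knockouts, and at 17.8 in dESC_control and 1.39 in dESC_Yap1_KD1. Overexpression set both genes above all 3 undifferentiated controls. Their log2 ratios to BirA, 1.88 and 1.71, rest on about 82 and 115 estimated fragments against 4 and 9. As ratios of fragments per depth these were 13.6 (95% exact interval 5.13 to 51.3, counting error only) and 8.5 (4.33 to 19.1). In the differentiated knockdown Acta1 was at 13.7% and Acta2 at 7.77% of the control, with log2 ratios of -2.78 and -2.98, the latter the lowest of the 45. Actg2 was listed at 0 in BirA, Yap1_OE, Yap1_KO1 and Control and lay between 0.0572 and 0.141 FPKM in ESC, Yap1_KO2, Yap1_KD1 and both differentiated libraries. Summed, the muscle actins came to 116 FPKM in dESC_control and 14.9 in dESC_Yap1_KD1.

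SRF and its MRTF cofactors did not reach 2-fold from an own control in any of the 5 Yap1 comparisons. Srf was at 20.6 FPKM in BirA and 28.0 in Yap1_OE, at 24.9 in ESC, 17.1 in Yap1_KO1 and 19.0 in Yap1_KO2, at 14.7 in Control and 11.7 in Yap1_KD1, and at 52.3 in dESC_control and 37.8 in dESC_Yap1_KD1. It was above its control in Yap1_OE and below it in each of the 4 libraries labelled with a loss of Yap1. The log2 ratios were 0.43, -0.51, -0.37, -0.30 and -0.46. The 3 undifferentiated controls were themselves 0.72 apart on that scale, more than any of these ratios, and both libraries labelled as knockouts lay above Control. Mkl1, the MRTF-A gene, was at 9.0 and 8.64 in BirA and Yap1_OE, 10.9, 8.07 and 9.57 in ESC and the libraries labelled Yap1_KO1 and Yap1_KO2, 7.82 and 8.03 in Control and Yap1_KD1, and 14.9 and 10.7 in the differentiated pair. Mkl2, the MRTF-B gene, was lower, at 2.24 and 3.11, at 3.07, 3.70 and 4.73, at 2.46 and 2.32, and at 4.60 and 5.47 FPKM in the same order. Over all 9 libraries Srf ranged 4.45-fold, Mkl1 1.9-fold and Mkl2 2.44-fold.

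Of the LIM-domain proteins that act with SRF, Tgfb1i1 (Hic-5, a relative of paxillin) reached 1 FPKM in the differentiated libraries only. It was at 0.145 FPKM in BirA and 0.788 in Yap1_OE, 0.154 in ESC, 0.0858 in Yap1_KO1 and 0.124 in Yap1_KO2, 0.271 in Control and 0.0585 in Yap1_KD1, and 11.9 in dESC_control and 2.69 in dESC_Yap1_KD1. It was thus at 22.5% of its control in the differentiated knockdown. Fhl2 ran from 0.123 to 1.60 FPKM in undifferentiated cells and stood at 7.05 and 3.54 in the differentiated control and knockdown. Fhl1 was at 17.6 and 26.0 in BirA and Yap1_OE, between 11.3 and 15.0 in the other undifferentiated libraries, and at 41.9 and 28.9 in the differentiated pair. Tgfb1i1 was the 1 gene of the 6 in this group that was 2-fold lower in the differentiated knockdown.

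The calponin family bundles and stabilizes actin filaments, and 4 of its 5 members were at least 2-fold lower in the differentiated knockdown. Tagln, transgelin or SM22, an early marker of smooth muscle, spanned the widest range of any member with a readable ratio. It was at 4.01 FPKM in BirA and 66.3 in Yap1_OE, 1.94 in ESC, 0.738 in Yap1_KO1 and 0.433 in Yap1_KO2, 2.31 in Control and 1.43 in Yap1_KD1, and 881 in dESC_control and 156 in dESC_Yap1_KD1. Each library labelled with less Yap1 lay below its own control, and Yap1_OE lay 16.5-fold above BirA, the highest log2 ratio of the 45 in that comparison (3.75). Between Control and dESC_control the difference was 381-fold, and the differentiated knockdown was at 17.8% of its control (log2 ratio -2.49). The values in the pair labelled as knockouts rest on about 7 and 5 fragments against 28, which gives 40.1% (14.8% to 94%) and 20.9% (6.31% to 54.9%) of ESC with exact 95% intervals for counting error.

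Tagln2, the more widely expressed paralog, differed little among undifferentiated libraries and did not follow Tagln under overexpression. Its levels were 269 FPKM in BirA and 200 in Yap1_OE, 212 in ESC, 218 in Yap1_KO1 and 195 in Yap1_KO2, 233 in Control and 209 in Yap1_KD1, and 564 in dESC_control and 187 in dESC_Yap1_KD1. The differentiated knockdown held less than any undifferentiated library. Cnn1, basic calponin of smooth muscle, was at 1.95 and 2.38 in BirA and Yap1_OE, 0.463, 0.628 and 0.417 in ESC, Yap1_KO1 and Yap1_KO2, 2.16 and 0.964 in Control and Yap1_KD1, and 41.6 and 13.9 in the differentiated pair. On the log2(FPKM + 1) scale it was the 1 member at least 2-fold apart between undifferentiated controls. It was higher in BirA and in Control than in ESC, where 0.968% and 2.73% of tested genes were. None was lower than ESC in those controls (0.497% and 1.74%), and none was 2-fold apart between BirA and Control (0.308% higher and 0.982% lower in BirA). As ratios of FPKM, other members were also more than 2-fold apart between undifferentiated controls. Among them were Tagln (1.94 to 4.01), Tpm2 (7.1 to 15.2), Acta1 (0.0658 to 0.448) and Acta2 (0.0354 to 0.434). Cnn2 was at 37.1 in BirA and 62.6 in Yap1_OE, 30.2 in ESC, 18 in Yap1_KO1 and 17.4 in Yap1_KO2, 31.0 in Control and 21.2 in Yap1_KD1, and 321 in dESC_control and 121 in dESC_Yap1_KD1. Here the 3 undifferentiated libraries labelled with Yap1 loss all lay below the 3 undifferentiated controls and Yap1_OE above them. Cnn3 ran from 135 to 201 FPKM in undifferentiated cells and was at 289 and 166 after differentiation.

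Among myosin genes the regulatory light chain Myl9 separated the perturbed libraries most. It was at 1.54 FPKM in BirA and 7.27 in Yap1_OE, 1.81 in ESC, 0.232 in Yap1_KO1 and 0.424 in Yap1_KO2, 2.06 in Control and 0.237 in Yap1_KD1, and 64.6 in dESC_control and 18.7 in dESC_Yap1_KD1. All 3 undifferentiated controls lay between 1.54 and 2.06, Yap1_OE above them and the 3 libraries labelled with loss below. Few fragments stand behind the low values, about 1 in Yap1_KO1, 3 in Yap1_KO2 and 3 in Yap1_KD1. With exact 95% intervals for counting error, these give 10% (0.239% to 64.5%), 22% (4.1% to 76.7%) and 13.3% (2.59% to 43%) of their controls. The overexpression ratio was 4.71 (2.68 to 8.92) by the same reckoning.

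The nonmuscle light chains were abundant and differed less. Myl12a, a regulatory light chain, was at 127 FPKM in BirA and 156 in Yap1_OE, 120 in ESC, 98.8 in Yap1_KO1 and 105 in Yap1_KO2, 113 in Control and 92.7 in Yap1_KD1, and 327 in dESC_control and 148 in dESC_Yap1_KD1. Myl6, the essential light chain, was at 71.8 and 60.0, at 57.3, 38.3 and 35.9, at 53.6 and 65.5, and at 145 and 71.9 FPKM in that order. Myl6 thus stood below BirA under overexpression, below ESC in the pair labelled as knockouts and above Control in the knockdown of ES cells. Myh9, the heavy chain of nonmuscle myosin IIA, was at 88.1 in BirA and 112 in Yap1_OE, 89.0 in ESC, 58.2 in Yap1_KO1 and 59.3 in Yap1_KO2, 58.9 in Control and 60.1 in Yap1_KD1, and 324 in dESC_control and 155 in dESC_Yap1_KD1. The library Control was as low as the libraries labelled as knockouts, so for Myh9 the spread between undifferentiated controls covered the difference of that pair from ESC. Myh10, the IIB heavy chain, ran from 16.1 to 23.5 in undifferentiated cells and was at 62.0 and 37.7 after differentiation.

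Caldesmon and the tropomyosins bind along actin filaments and regulate the access of myosin. Cald1 was at 11.5 FPKM in BirA and 26.5 in Yap1_OE, 10.3 in ESC, 10.9 in Yap1_KO1 and 7.31 in Yap1_KO2, 13.2 in Control and 10 in Yap1_KD1, and 105 in dESC_control and 23.1 in dESC_Yap1_KD1. Tpm1 was at 53.1 in BirA and 142 in Yap1_OE, 47.4 in ESC, 39.9 in Yap1_KO1 and 38.2 in Yap1_KO2, 47.3 in Control and 50.7 in Yap1_KD1, and 985 in dESC_control and 229 in dESC_Yap1_KD1. For both genes overexpression stood more than 2-fold above BirA and the differentiated knockdown at 21.9% and 23.2% of its control, whereas the knockdown in ES cells was within 1.5-fold of its control. Tpm4 was at 28.6 and 40.6 in BirA and Yap1_OE, 18.8, 30.5 and 24.2 in ESC, Yap1_KO1 and Yap1_KO2, 28.6 and 24.3 in Control and Yap1_KD1, and 177 and 81.0 in the differentiated pair. In Tpm4 the pair labelled as knockouts was above ESC, opposite in sign to Tpm1. Tpm2 ran from 6.97 to 15.2 FPKM in undifferentiated cells and was at 45.6 and 23.3 after differentiation, a ratio just short of the 2-fold line (log2 -0.94).

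Crosslinkers and LIM-domain proteins hold filaments together and tie them to the Z-disc or to adhesions, and 3 of the 9 passed the 2-fold line in the differentiated knockdown. Flnc, the muscle filamin, was at 4.96 FPKM in BirA and 7.17 in Yap1_OE, 7.30 in ESC, 4.88 in Yap1_KO1 and 4.86 in Yap1_KO2, 5.18 in Control and 4.23 in Yap1_KD1, and 71.2 in dESC_control and 23.6 in dESC_Yap1_KD1. Pdlim7 (enigma) was at 31.2 and 42.5, at 29.6, 22.0 and 19.9, at 32.9 and 28.3, and at 184 and 78.0 in the same order. Csrp1, a cysteine-rich protein that binds α-actinin, was at 67.0 and 88.2, at 51.0, 46.8 and 50.4, at 72.8 and 99.6, and at 352 and 123. Pdlim7 lay below all 3 undifferentiated controls in every undifferentiated library labelled with loss, while Csrp1 was higher in Yap1_KD1 than in any of those controls. Flna, the ubiquitous filamin, ran from 46.4 in Yap1_KD1 to 83.6 in Yap1_OE among undifferentiated cells and was at 259 and 134 in the differentiated pair.

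The remaining members of that group held different orders. Pdlim5 was at 14.9 and 14.3 FPKM in the libraries labelled Yap1_KO1 and Yap1_KO2 against 9.32 to 10.4 in the 3 controls, the opposite side from Pdlim7. Des, desmin of muscle intermediate filaments, was lower than its own control in each of the 5 perturbed libraries, Yap1_OE included (log2 ratios -0.74, -0.88, -0.84, -0.34 and -0.74). Lima1 (EPLIN) was the only member whose lowest level of all 9 libraries was in dESC_control, 22.7 FPKM, where dESC_Yap1_KD1 was at 32.1. Palld, palladin, was at 14.9 in dESC_control and 7.58 in dESC_Yap1_KD1, and between 5.24 and 9.60 elsewhere.

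In the group of filament turnover and nucleation, 1 of 6 genes was past 2-fold in the differentiated knockdown. Arpc5, a subunit of the Arp2/3 complex, was the gene at least 2-fold lower in the differentiated knockdown, at 60.6 FPKM in BirA and 84.5 in Yap1_OE, 63.1 in ESC, 65.2 in Yap1_KO1 and 66.4 in Yap1_KO2, 65.6 in Control and 36.4 in Yap1_KD1, and 182 in dESC_control and 76.8 in dESC_Yap1_KD1. Yap1_KD1 was the lowest of its 9 libraries, and the pair labelled as knockouts did not lie below ESC. Cfl1, cofilin, which severs filaments, ran from 560 to 995 FPKM in undifferentiated cells, with 1087 and 979 in the differentiated pair. Wdr1, its cofactor, was at 137 and 88.7 there, and Diap1, a formin, at 41.0 and 41.6. Tmsb10, which binds monomeric actin, was at 274 in dESC_control and 207 in dESC_Yap1_KD1, and Cdc42ep3 at 3.31 and 4.78. Cdc42ep3 and Pdlim5 were the 2 members above all 3 undifferentiated controls in each of the 3 undifferentiated libraries labelled with loss (4.59% of tested genes).

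The proteins that link actin to membranes, and the calcium-dependent protease Capn2, included 2 of the lowest ratios of the differentiated knockdown. Capn2, calpain 2, was at 5.30 FPKM in BirA and 13.1 in Yap1_OE, 7.91 in ESC, 3.14 in Yap1_KO1 and 3.99 in Yap1_KO2, 5.23 in Control and 1.61 in Yap1_KD1, and 72.4 in dESC_control and 15.1 in dESC_Yap1_KD1. As with Myl9, the controls lay between Yap1_OE and the libraries labelled with loss, here with 57.3 or more estimated fragments in every library. Against ESC as control the overexpression log2 ratio of Capn2 was 0.66 in place of 1.16, short of 2-fold. Ahnak, a giant scaffold under the membrane, was at 5.06 and 10.2, at 5.04, 3.47 and 3.14, at 4.90 and 3.86, and at 36.8 and 6.20, so the differentiated knockdown was at 16.9% of its control. The related linkers ezrin and moesin differed. Ezr was at 124 and 151 FPKM in the differentiated control and knockdown, and Msn at 109 and 80.0. Msn was at 73.5 and 70.6 in the libraries labelled Yap1_KO1 and Yap1_KO2, against 40.2 to 49.0 in the 3 undifferentiated controls.

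**Figure D3:**
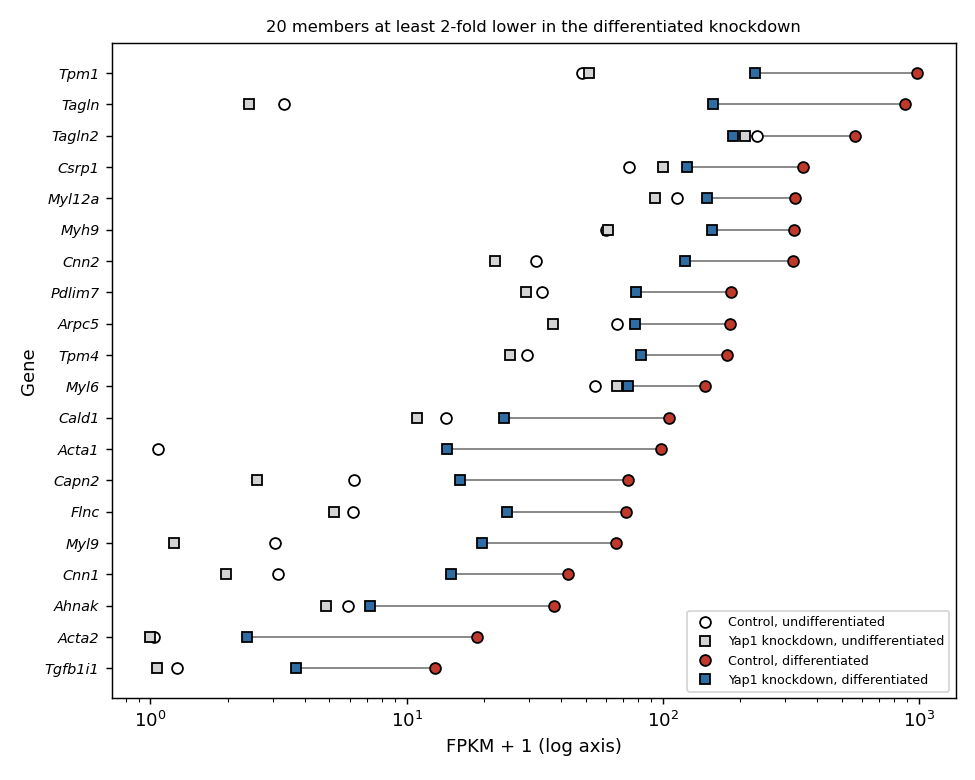
The 20 members at least 2-fold lower in the differentiated Yap1 knockdown (vertical axis) with FPKM + 1 on a log axis. Symbols are the undifferentiated control and knockdown (open and grey) and the differentiated control and knockdown (red and blue). The line joins the differentiated pair, and an Acta1 zero that was not read is left out. Blue squares lie left of red circles in all 20 by construction, and right of both undifferentiated symbols in all but Tagln2.

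The differentiated knockdown was the Yap1 perturbation with the most members past 2-fold, 20 against 7 under overexpression and 2 or fewer in each of the others. Its background was also larger, with 4.56% of all tested genes lower, against 1.42% higher under overexpression. In Yap1_KO1, Yap1_KO2 and the knockdown of ES cells 1.51%, 1.51% and 0.355% were lower, so the counts alone do not rank the comparisons. By role, the 20 lower genes were 2 of 5 actins, 1 of 6 for SRF and cofactors, 4 of 5 calponins, 5 of 7 for myosin and its regulation, 2 of 3 tropomyosins, 3 of 9 crosslinkers and LIM proteins, 1 of 6 for turnover and 2 of 4 membrane linkers with the protease. The lowest log2 ratios after the muscle actins were those of Tagln (-2.49), Ahnak (-2.39), Capn2 (-2.19), Cald1 (-2.14) and Tpm1 (-2.10). The highest, short of 2-fold, were those of Lima1 (0.48), Cdc42ep3 (0.42) and Ezr (0.28). For most of the 20, lower did not mean back at the undifferentiated level. In dESC_Yap1_KD1, 25 of the 45 members were above all 7 undifferentiated libraries (25.8% of tested genes), and 2, Tagln2 and Des, were below all 7 (25.2%). Of the 20 lower genes, Acta2, Myl12a, Cald1, Ahnak and Arpc5 were below Yap1_OE and so not among the 25. Ezr and Mkl2 were among the 25 although higher in the knockdown than in dESC_control. Among members that reach 1 FPKM in some library, dESC_control was the highest of all 9 libraries for 35 (23.5%) and the lowest for Lima1 (21.1%). Members with a CArG box in their window had a median log2 ratio of -0.68 in the differentiated knockdown (10 genes, -2.78 to 0.48), and those with a window but no box -0.94 (30 genes, -2.98 to 0.42). Under overexpression these medians were 0.52 and 0.28, in the knockdown of ES cells -0.17 and -0.14, and in Yap1_KO1 and Yap1_KO2, in that order, -0.50 and -0.06, and -0.37 and -0.12. In the loss comparisons of undifferentiated cells the first median covers 9 genes, since Acta1 was not read. The median of the members with a box was thus the further from 0 in the undifferentiated comparisons, by little in the knockdown, and the closer to 0 in the differentiated knockdown. These differences were not tested. A box here is an exact match in a short window, so the split does not separate members bound by SRF from others. Acta2 (-2.98) was counted without a box, though its window holds the near match ccctatatgg. The members without a window, Tagln (-2.49) among them, were in neither group.

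Markers of ES cells and of other cells differed between the 2 differentiated libraries as well. The 8 ES cell markers summed to 1831 FPKM in dESC_control and 2551 in dESC_Yap1_KD1. Of these, 7 were higher in the knockdown, among them Sox2 (76.3 and 182) and Esrrb (30.3 and 86.9). Klf4 was lower (9.1 and 5.83), and Tdgf1 was nearly level (84.3 and 85). The 5 epithelial markers (Krt8, Krt18, Krt19, Cdh1 and Epcam) summed to 1854 FPKM in dESC_control and 473 in dESC_Yap1_KD1, and the 6 of primitive streak and mesoderm to 88.8 and 22.7. Every gene of both lists was lower in the knockdown, but Epcam was nearly level (109 and 108) and Cdh1 was at 256 and 176. Most of the epithelial sum in dESC_control was keratin, with Krt18 at 832 and 102, Krt8 at 486 and 65.3 and Krt19 at 170 and 21.8. Most of the streak and mesoderm sum was T (70.7 and 20). The 8 smooth muscle markers summed to 107 and 54.8, with 6 of 8 lower. Actg2, Cnn1 and Des among them are members, and the other 5 summed to 57 and 36, most of it Smtn (53.1 and 34.6), with Lmod1 at 2.82 and 0.343. The defining smooth muscle genes Myh11 and Myocd stayed under 1 FPKM in all 9 libraries, at 0.350 and 0.0446 and at 0.0792 and 0.0897 in the differentiated pair. Skeletal muscle markers summed to 2 FPKM or less in every library, dESC_control with its 97.7 FPKM of Acta1 included. The 6 trophoblast markers summed to 76.2 and 45.1 (4 lower) and the 7 endoderm markers to 313 and 101 (5 lower). Most of the endoderm sum was Sparc (304 and 95.2), and without it the sums were 9.56 and 5.94. The 7 cardiac markers summed to 12.5 and 17.2, but without Myl7 (3.82 and 11.9) to 8.73 and 5.24. The 8 feeder fibroblast markers summed to 11.6 and 9.55, and without Thy1 (3.40 and 8.21) to 8.22 and 1.34, with Col1a1 at 5.73 and 0.444. The part of these markers in the lower level of the members was not tested.

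Under overexpression most members lay above the controls, beside the 7 genes past 2-fold. Yap1_OE lay above all 3 undifferentiated controls for 28 of the 45 members (27.8% of tested genes) and below them for 3, Tagln2, Des and Cdc42ep3 (26%). Besides the 7 genes past 2-fold, the highest log2 ratios were those of Ahnak (0.89), Cnn2 (0.74), Tgfb1i1 (0.64) and Actg1 (0.58). The lowest were those of Des (-0.74), Tmsb10 (-0.48) and Tagln2 (-0.43). The epithelial markers summed to 434 FPKM in Yap1_OE and 239 in BirA, and the ES cell markers to 4071 and 5742. All 5 of the first were higher and all 8 of the second lower in Yap1_OE. Most of the epithelial difference was in Krt18 (130 and 17.5) and Krt8 (63.4 and 7.32), while Cdh1 was nearly level (128 and 124). Trophoblast markers summed to 39.6 and 32.7, and without Tfap2c (29.9 and 29.6) to 9.72 and 3.07. Of the 6, 4 were higher, with Hand1 at 5.46 and 0.456, Gata3 at 2.26 and 0.149 and Cdx2 at 0.970 and 0.0331. The other 2 were lower, Eomes at 1.04 and 2.4 and Elf5 at 0 and 0.0335. Endoderm markers summed to 111 and 86.6, with 149 in ESC, and most of this was Sparc (102 and 78.8). Without Sparc they summed to 8.61 and 7.86. Of the 7, 6 were higher, with Foxa2 at 0.872 and 0.0345, and Lama1 was lower (4.42 and 6.34). The 5 smooth muscle markers that are not members summed to 14.7 and 11.9, and all 8, Des included, to 23.5 and 25.2. Feeder fibroblast markers were at 7.73 and 23.1, and without Thy1 at 3.08 and 3.80. Their part in the result was not tested.

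Overexpression and the differentiated knockdown share no library, so their gene lists can be compared. All 7 members at least 2-fold higher under overexpression were among the 20 at least 2-fold lower in the differentiated knockdown, 100% of the first list and 35% of the second. Acta1 and Acta2 passed the filter of the first comparison through Yap1_OE alone (3.62 and 3.69 FPKM, against 0.252 and 0.434 in BirA). By the 2-fold rule these genes could therefore be called higher there but not lower. Over all genes tested in both comparisons, 71 were in both lists, 44.9% of the 158 and 16.7% of the 424. Counting any difference, 30 members were higher under overexpression and lower in the differentiated knockdown, 90.9% of 33 and 81.1% of 37, against 54.6% and 58.6% for all genes. Of all tested genes, 52.3% were higher in the first comparison and 51.5% lower in the second. Tagln2 and Myl6 were among the exceptions, being lower than the control in both.

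**Figure D4:**
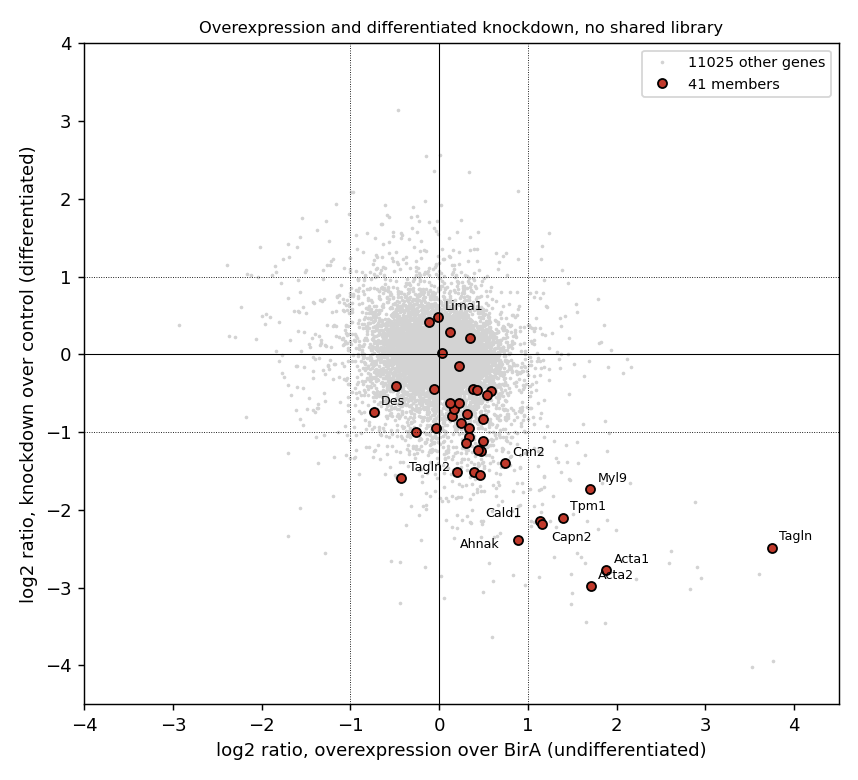
Log2 ratio of FPKM + 1 for overexpression over BirA (horizontal axis) and for the differentiated knockdown over its control (vertical axis), 41 members (red) and 11025 other genes (grey) tested in both; dotted lines mark 2-fold. Tagln, Acta1, Acta2, Myl9, Tpm1, Cald1 and Capn2 fill the corner past both lines, and Tagln2 and Des lie left of 0.

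For the libraries labelled as knockouts, limma was fitted on both against ESC. Whether the 2 are separate clones or cultures is not stated in the labels. The p-values therefore measure the spread between these libraries alone, and that spread may be technical. With limma and Benjamini-Hochberg adjustment over 11538 genes, 2 genes were called higher (0.0173%) and 18 lower (0.156%), and no member was among them. At an unadjusted p under 0.05, limma placed 13 members lower (10.5% of all genes), namely Tagln, Cnn2, Myl9, Myl6, Flna, Flnc, Srf, Myh9, Des, Pdlim7, Capn2, Ahnak and Tmsb10, and 4 higher (12.6%), namely Tpm4, Pdlim5, Msn and Cdc42ep3. The smallest adjusted p of a member was 0.15 in limma, shared by Cnn2 (log2 -0.74, SE 0.11), Des (-0.86, SE 0.13), Myh9 (-0.59, SE 0.09), Myl6 (-0.61, SE 0.11), Msn (0.55, SE 0.10), Capn2 (-0.97, SE 0.19) and Pdlim5 (0.60, SE 0.12). After centring each library on its median gene, Cnn2 (log2 -0.78, SE 0.12) and Myh9 (-0.63, SE 0.10) reached a limma adjusted p of 0.0489. Both libraries lay below all 3 undifferentiated controls for 16 members (20%) and above them for 7 (23.8%). In these 2 libraries ratios also followed GC content across genes (Spearman's rho -0.612 and -0.628, a description over genes of 1 library each), and the members' median GC was 53.3% against 51.1% for all genes. With that trend removed, the median log2 of the members past the filter was -0.16 in place of -0.23, and no member was called.

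In the knockdown of ES cells few members were far from their control. Beyond Myl9 (log2 -1.30) and Capn2 (-1.26), the lowest log2 ratios were those of Arpc5 (-0.83), Cnn1 (-0.69), Cnn2 (-0.53) and Flna (-0.49). The highest were those of Csrp1 (0.45) and Myl6 (0.28). Yap1_KD1 lay below all 3 undifferentiated controls for 21 members (27.5%) and above for 3 (28.5%), Pdlim5, Csrp1 and Cdc42ep3. The knockdown and the pair labelled as knockouts share no library, and 16 members were lower than the control in all 3. These were 72.7% of the 22 lower in both libraries of that pair and 61.5% of the 26 lower in the knockdown, against 43% and 35.9% for all genes. Of all tested genes, 40.5% were lower in both libraries of that pair and 48.5% in the knockdown. All 3 lay below every undifferentiated control for 11 members (4.4% of tested genes): Tagln, Cnn2, Myl9, Myl12a, Flna, Flnc, Fhl1, Des, Pdlim7, Capn2 and Ahnak.

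The joint fit of both undifferentiated loss arms, each library against its own control, called 0 genes higher (0%) and 2 lower (0.0165%) of 12128 by limma with Benjamini-Hochberg adjustment, and no member. At an unadjusted p under 0.05, limma placed 10 members lower (3.98% of all genes) and 2 higher (2.77%). Myl9 had a log2 of -1.18 (SE 0.18) and Capn2 of -1.09 (SE 0.17), with a limma adjusted p of 0.362 each (range over alternatives 0.105 to 0.666 for Myl9 and 0.112 to 0.733 for Capn2). Srf stood at -0.38 (SE 0.13, limma adjusted p 0.714).

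A contrast over all 4 arms gave overexpression a plus and loss a minus sign, with 4 residual degrees of freedom. By limma with Benjamini-Hochberg adjustment it called 0 of 12871 genes in either direction (0%), and at an unadjusted p under 0.05 it placed 23 members on the side of Yap1 (5.53% of all genes) and 1, Cdc42ep3, on the other (4.61%). Acta1 was among the 23 (log2 1.26, SE 0.40), and its zeros were taken as listed in this fit. Myl9 led the members with a log2 of 1.43 (SE 0.15) and a limma adjusted p of 0.0731, which became 0.0272 when small RNA entries were left out, where 0.0472% of genes were called in each direction. Over the alternatives this p ran from 0.0272 to 0.342. Capn2 followed at 1.36 (SE 0.20, adjusted p 0.119), Cnn2 at 0.84 (SE 0.13, adjusted p 0.173), Srf at 0.41 (SE 0.08, adjusted p 0.208) and Tagln at 1.82 (SE 0.48, adjusted p 0.319), all from the same limma fit. Tagln had the largest mean but an uneven size over the arms.

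The labels do not name the undifferentiated counterpart of the differentiated cells, so Control and Yap1_KD1 were chosen for this comparison. With differentiation of the control cells, 31 members were at least 2-fold higher in dESC_control than in Control. Tagln led with a log2 ratio of 8.06, followed by Acta1 (6.53), Myl9 (4.42), Tpm1 (4.35), Acta2 (4.19), Cnn1 (3.75), Capn2 (3.56) and Flnc (3.55). The scale of log2(FPKM + 1) understates the ratios of genes near 0, such as both muscle actins. The median of the 45 was 1.63, against 0.04 for all genes tested. For members past the filter the median was 1.69. It ran from 1.43 to 1.76 over the alternatives, among them ESC or BirA in place of Control. The lowest ratios were those of Lima1 (-0.76), Des (-0.39) and Mylk (-0.13). Between Yap1_KD1 and dESC_Yap1_KD1, 22 members were at least 2-fold higher (10.2% of 12232 genes) and 0 lower (10.2%), with a median of 1.01. Tagln2, Myl12a, Myl6, Csrp1, Wdr1, Palld, Ahnak and Msn passed 2-fold in the control cells and not in the knockdown cells, where Acta1 was not read, and the difference between the 2 was not tested.

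Another 50 genes of the actin and SRF pathway were examined in the same way. In the differentiated knockdown 12 of the 50 (24%, against 4.56% of all tested genes) were at least 2-fold lower, namely Zyx, Actn1, Gsn, Tmsb4x, Rock2, Elk3, Anxa2, S100a6, S100a11, Lmna, Phldb2 and Tgfb2, and 0 were higher (1.6%). Their median log2 ratio was -0.37, less far from 0 than that of the members. Anxa2, annexin A2, was at 20.8 FPKM against 189 in the differentiated control, and the calcium-binding S100a6 at 16.3 against 110. Phldb2 was at 5.16 against 42.7 and S100a11 at 36.4 against 165. Under overexpression Gsn (gelsolin), Rhob and Phldb2 were higher (6%, against 1.42%) and Vim (vimentin) lower (2%, against 2.21%), with a median of 0.19. Of the libraries labelled as knockouts, Yap1_KO1 had 4 lower (Gsn, Anxa2, S100a6 and Lmna) and Yap1_KO2 had 1 (Anxa2), 8% and 2% against 1.51% in each, while the knockdown in ES cells had 0 in either direction. No gene of the 50 was called by limma with Benjamini-Hochberg adjustment in the knockout or joint fit, where at an unadjusted p under 0.05 limma placed 8 lower and 8 higher in the first (16% each, against 10.5% and 12.6% of all genes) and 4 lower and 2 higher in the second (8% and 4%, against 3.98% and 2.77%). The contrast over 4 arms called 0 as well, with 10 higher (20%, against 5.53%) and 0 lower (4.61%) at an unadjusted p under 0.05 in limma. With differentiation of the control cells 14 of the 50 were higher (28%, against 12.9%) and 0 lower (9.98%), with a median of 0.70. Wwtr1 (Taz), the paralog of Yap1, was at 12.8 FPKM in the differentiated knockdown against 27.2 in its control, and between 7.55 and 10.2 in undifferentiated cells.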

How the data were processed

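The authors deposited 1 table of FPKM values per gene for the 9 libraries. TopHat2, Cuffdiff and the build mm9 are named per the submitters' processing notes, and versions, annotation and strandedness were not given in the labels. Of 23277 entries, 4746 were blank and 27 carried dates in place of symbols, which left 18504 genes. A listed 0 may come from an estimate that failed in Cuffdiff, so zeros of a gene above 20 FPKM elsewhere were not read in ratios of 1 library to 1. The limma fits took such zeros as listed.

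Depth was estimated from the steps between low values, with the scale set by 213 genes whose quartiles were 12.4 and 14.8 M (mega) fragments for BirA. It may include scaling by Cuffdiff, and it entered no test. Log2 ratios are of FPKM + 1, and counts cover genes that reach 1 FPKM in either library compared. Folds and percentages of 1 gene are ratios of FPKM. Libraries without replicates were compared by a 2-fold rule. Otherwise limma 3.58.1 (R 4.3.3) was fitted with a mean-variance trend over all genes, with Benjamini-Hochberg adjustment at 0.05. The knockout fit had 1, the joint fit 2 and the fit over 4 arms 4 residual degrees of freedom, and lone libraries are assumed to vary like the rest. On simulated data with 200 changed genes, the knockout fit (11538 genes) recovered 33% of 2-fold and 97% of 4-fold changes, with 23.1% of calls false. The joint fit (12128 genes) recovered 78% and 95%, and the fit over 4 arms (12871 genes) 93% and 97%, with 0% false in both. Simulated noise came from the difference between the 2 libraries labelled as knockouts. Only genes well above the filter were changed, by the same size in every arm. Real arms differ in size and real controls differ from each other, so these shares cannot be carried over to the real fits.

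The members and lists were chosen with earlier results of these data known. Values in all 9 libraries are given for members at 5 FPKM or more in some library that were 2-fold apart from an own control, for Srf, Mkl1, Mkl2 and the actins. Of the other pathway genes, the 4 with the largest ratio in the differentiated knockdown are given with values. Single values of other members were chosen after they were seen. Promoter windows came from RefSeq on GRCm38.p6, another build than that of the FPKM values, and were matched by symbol. Alternatives were other pseudocounts, filters and controls, centring, removal of small RNA entries or of a GC trend, a 1.5-fold rule and leaving out libraries. Reading the zeros as listed was added after the data were seen.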

Additional observations from a re-analysis of the deposited data

Results flagged for a closer look

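Myl6, the essential light chain of nonmuscle myosin, and Csrp1, which binds α-actinin, lay on opposite sides of their controls in the 2 knockdown comparisons by more than 1.2-fold each way. The log2 ratio of Myl6 was 0.28 in ES cells and -1.0 in differentiated cells, and that of Csrp1 was 0.45 and -1.51. Each comparison has 1 library a side, and the difference between them was not tested. They were 2 of 11 members with opposite signs, and the other 9 were within 1.2-fold of the control in at least 1 of the comparisons.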

How the results depend on the processing

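The number of members higher under overexpression was 2 in place of 7 with a pseudocount of 5 FPKM, and with a 1.5-fold rule 1 was lower in place of 0. In the knockdown of ES cells the 2 lower members became 0 with a pseudocount of 5 FPKM, 1 with a filter at 5 FPKM and 4 with a 1.5-fold rule, which also put 1 member lower with differentiation. Members lower in both libraries labelled as knockouts, 0 as reported, were 2 with a pseudocount of 0.1 FPKM, 1 after centring and 5 with a 1.5-fold rule. In the knockout fit, centring called 2 members lower, and of all genes 49 higher and 136 lower. Other settings there gave 1 higher (pseudocount of 5 FPKM), 0 and 0 (no filter), 10 and 38 (no small RNA entries), 4 and 29 (GC trend removed) and 0 and 1 (BirA and Control added). In the joint fit 1 gene was higher without small RNA entries, and 1 was lower with a pseudocount of 0.1 FPKM, no filter or a filter at 5 FPKM. Without 1 of the libraries labelled as knockouts it called 1 to 6 genes higher and 9 or 3 lower, the 9 without Yap1_KO1. The contrast over 4 arms called 1 member and 6 genes higher and 6 lower without small RNA entries, and 1 gene higher without the overexpression arm. The cause of these shifts was not tested. Pseudocounts act most on low genes: the overexpression ratio of Acta2 ran from 0.68 to 2.82 on the log2 scale. No paired analysis was possible because every group but the knockouts has 1 library, so the compared groups share no replicate numbers.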
